A study of Rattus norvegicus with 11 samples.

Results

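The glucocorticoid response genes described here are 10 genes picked by name, with earlier results of these data known. They were found by their symbol in the deposited reads and FPKM values of all 11 libraries. They are Nr3c1, Hsd11b1, Tsc22d3, Fkbp5, Zbtb16, Klf9, Cdkn1a, Errfi1, Cebpd and Cyp11b1, and all 10 were present among 24481 genes with read counts and 24205 genes with FPKM. FPKM is the number of fragments scaled to gene length and library depth, so that levels can be compared roughly between genes and libraries. Ileum RNA of SD rats aged 6 to 8 weeks was sequenced in 3 groups, a Control group (n = 3), a group with severe acute pancreatitis (SAP, n = 4) and a group with SAP treated with JZL184 (JZL184, n = 4). SAP was made by injection of 3% sodium taurocholate into the pancreatic duct. The rats were assigned to the groups 24 h after surgery and then given 1 intraperitoneal injection, of JZL184 at 10 mg/kg in the JZL184 group and of the same volume of vehicle in the other groups, and were killed 24 h later. JZL184 is an inhibitor of monoacylglycerol lipase (MAGL), the enzyme that breaks down the endocannabinoid 2-arachidonoylglycerol. The labels name the control treatment a control plasmid and the titles of the SAP libraries speak of oil, where the protocols describe vehicle, and the operation of the control rats is not given in the sources used here.

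Glucocorticoids are steroid hormones of the adrenal cortex. In the cell they bind the glucocorticoid receptor, which is held by a chaperone complex in the cytoplasm, moves to the nucleus and binds palindromic response elements in the DNA, where it raises genes such as Fkbp5, Tsc22d3 and Zbtb16, while it lowers many cytokine genes through other transcription factors. In the gut wall, enzymes of the 11-beta-hydroxysteroid dehydrogenase family switch the hormone on or off inside the cell.

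The 4 JZL184 libraries held the highest FPKM of Fkbp5, Zbtb16, Cebpd and Tsc22d3 among all libraries, whereas Nr3c1 and Hsd11b1 were highest in SAP libraries. By normalized counts, Control library 3 exceeded JZL184 libraries 1 and 3 for Tsc22d3. Against Control, Fkbp5 was 5.45-fold, Cebpd 6.12-fold and Zbtb16 19.1-fold higher in the JZL184 group (n = 4 and 2), and these 3 rose past the threshold of edgeR. Against SAP, the same 3 were 2.56-fold, 3.26-fold and 7.43-fold higher (n = 4 and 4), which passed the threshold with DESeq2 and not with edgeR.

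Each library held 26341299 to 33847135 reads on genes. Control libraries 1 and 2 were nearly identical, with a chi-square statistic of 2.81 for the average gene of at least 20 reads, against 77.5 to 563 in the other pairs of libraries of a group, and were counted as 1 sample, so that the Control group had n = 2. SAP libraries 1 and 2 stood apart, with TMM normalization factors of 1.17 and 1.18 against 0.957 and 1.02 in SAP libraries 4 and 3. Their FPKM summed over all genes was 484256 and 494474, against 596324 to 679911 in the other libraries. FPKM, which is not corrected for this, therefore compares only roughly between libraries. The counts of members called, and fold changes of Nr3c1, Klf9, Fkbp5 and Zbtb16, are also given without SAP libraries 1 and 2. SAP library 2 held 20 reads on 3 Y-linked genes, where the other libraries held 1222 to 4665 and the methods describe male rats. On LOC100911498, counted with the sex-linked genes, it held 7826 reads, where SAP library 1 held 56 and the rest 0 to 5. The sex of this animal was not tested. The labels give ileum tissue as the source and also an intestinal epithelial cell, and markers of the epithelium, smooth muscle, fibroblasts, endothelium and immune cells were all detected. In such bulk libraries, fewer cells of a type and less RNA per cell cannot be told apart. The samples used here are separate by their labels, nothing ties the libraries to litters or days, and p-values measure the spread between these samples.

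Sequences in front of gene starts were read for the members from RefSeq on the rat assembly GRCr8, which is a later build than the mRatBN7.2 used for the reads. 6 of the 10 members had an entry, with 9 windows of 300 bases that begin 250 bases before the start. Zbtb16, Hsd11b1, Cebpd and Cyp11b1 had no entry. The windows were searched on both strands for the core of the glucocorticoid response element, written ACANNNTGT, where N is any base, and for its 6-base site AGAACA. The core was found in 6.86% of 33469 windows of all genes, and among the members in 1 of the 3 windows of Tsc22d3, where it begins at position -183 from the start. AGAACA was found in 20.7% of all windows and in 0 of the 9 windows of the members. Another induced target named below, Map3k6, held the core at position -179. The windows of Tsc22d3 (chrX:109065381-109065680, minus strand), Map3k6 (chr5:150723995-150724294, plus strand) and Fkbp5 (chr20:6543506-6543805, minus strand) are printed, the windows of Tsc22d3 and Map3k6 because they hold the core, in capitals, and that of Fkbp5 because this gene was called between JZL184 and Control and its window holds no match.
Tsc22d3: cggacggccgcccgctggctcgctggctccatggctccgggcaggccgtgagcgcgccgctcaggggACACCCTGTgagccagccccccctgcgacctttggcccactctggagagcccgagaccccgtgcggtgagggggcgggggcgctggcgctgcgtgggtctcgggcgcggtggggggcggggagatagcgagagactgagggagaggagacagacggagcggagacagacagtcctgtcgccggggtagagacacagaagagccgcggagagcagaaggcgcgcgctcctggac
Map3k6: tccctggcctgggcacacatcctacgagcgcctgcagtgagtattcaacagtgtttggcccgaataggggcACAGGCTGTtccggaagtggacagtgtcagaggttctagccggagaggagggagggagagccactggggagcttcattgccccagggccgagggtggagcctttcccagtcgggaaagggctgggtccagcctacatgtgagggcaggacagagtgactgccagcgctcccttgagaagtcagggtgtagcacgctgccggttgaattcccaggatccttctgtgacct
Fkbp5: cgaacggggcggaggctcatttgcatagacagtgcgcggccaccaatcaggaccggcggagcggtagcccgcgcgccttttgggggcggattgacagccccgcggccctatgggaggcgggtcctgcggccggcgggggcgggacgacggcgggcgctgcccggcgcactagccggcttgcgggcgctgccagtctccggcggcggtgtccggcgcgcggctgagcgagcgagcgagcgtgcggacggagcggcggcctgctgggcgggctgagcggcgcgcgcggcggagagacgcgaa
A match is a description of the letters alone, and the absence of a match says only that the letters are not in this window.

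Nr3c1 on chromosome 18 encodes the glucocorticoid receptor itself. Its FPKM was 3.42 in the joint sample of Control libraries 1 and 2, 4.74 in Control library 3, 9.21, 9.15, 5.30 and 4.16 in SAP libraries 1 to 4, and 6.34, 2.62, 4.37 and 4.10 in JZL184 libraries 1 to 4. SAP libraries 1 and 2 were high and the other 2 SAP libraries lay among the values of the other groups. Nr3c1 had a log2 fold change of 0.58 (SE 0.37, FDR = 0.473) in SAP against Control, -0.51 (SE 0.30, FDR = 0.34) in JZL184 against SAP and 0.04 (FDR = 0.947) in JZL184 against Control. SE is the standard error, and FDR is the adjusted p of Benjamini and Hochberg over all genes tested with edgeR's quasi-likelihood test where no other tool is named. Without SAP libraries 1 and 2, the first of these was 0.15 and the second -0.09. The sign of the third was negative with gene length offsets (-0.23) and with limma-voom (-0.03).

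Hsd11b1 on chromosome 13 encodes the enzyme that makes active glucocorticoid from its inactive form. Its FPKM was 1.25 in the joint Control sample and 1.79 in Control library 3, 2.82, 4.53, 3.93 and 2.23 in the SAP libraries, and 1.69, 2.39, 2.95 and 2.16 in the JZL184 libraries. All 4 SAP libraries were above both Control samples, and the JZL184 libraries overlapped with both groups. Hsd11b1 had a log2 fold change of 0.98 (SE 0.37, unadjusted p = 0.0294, FDR = 0.459) in SAP against Control and -0.38 (FDR = 0.463) in JZL184 against SAP.

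Cyp11b1 on chromosome 7 encodes the enzyme that makes the last step of glucocorticoid synthesis and is a marker of the adrenal cortex. There were 5 reads in all 11 libraries, 2 in SAP library 2 and 1 each in SAP library 3, SAP library 4 and JZL184 library 4, and its FPKM did not exceed 0.02. It was left out of the tests by the filter on low counts. The other 9 members passed this filter in each comparison.

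Fkbp5 on chromosome 20 encodes a co-chaperone that binds the receptor complex and lowers its affinity for the hormone. Its FPKM was 10.7 and 13.1 in the Control samples, 33.6, 36.8, 15.9 and 30.6 in the SAP libraries, and 61.5, 63.5, 62.9 and 76.1 in the JZL184 libraries. The groups did not overlap, with the Control samples lowest, SAP library 3 next to them, and the JZL184 libraries highest. Mean FPKM was 11.9 ± 1.72 (SD, n = 2) for Control, 29.2 ± 9.25 (SD, n = 4) for SAP and 66.0 ± 6.77 (SD, n = 4) for JZL184. Fkbp5 had log2 fold changes of 1.12 (SE 0.38, unadjusted p = 0.0196, FDR = 0.459) in SAP against Control, 1.35 (SE 0.29, FDR = 0.0851) in JZL184 against SAP, and 2.45 (SE 0.31, FDR = 0.0156) in JZL184 against Control. DESeq2 gave an FDR of 0.00202 for JZL184 against SAP.

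Zbtb16 on chromosome 8 encodes a zinc finger transcription factor known as PLZF. Its FPKM was 0.11 and 0.55 in the Control samples, 1.12, 1.11, 0.19 and 1.32 in the SAP libraries and 3.43, 7.29, 6.23 and 7.52 in the JZL184 libraries. Every JZL184 library was above every SAP library and both Control samples, whereas SAP library 3 lay between the Control samples. For Zbtb16, log2 fold changes were 1.40 (SE 0.86, FDR = 0.468) in SAP against Control, 2.89 (SE 0.56, FDR = 0.0851, DESeq2 FDR = 3.5e-05) in JZL184 against SAP, and 4.26 (SE 0.73, FDR = 0.0327) in JZL184 against Control. The last of these was 3.52 without the joint sample of Control libraries 1 and 2 and 5.72 without Control library 3. Of the 9 tested members it had the highest fold change in both comparisons with JZL184.

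Cebpd on chromosome 11 encodes a transcription factor of the C/EBP family that also responds to inflammatory cytokines. Its FPKM was 12.4 and 24.1 in the Control samples, 36.5, 16.8, 40.9 and 56.6 in the SAP libraries and 81.7, 143.7, 83.7 and 133.0 in the JZL184 libraries. The JZL184 libraries were above all others, and SAP library 2 lay between the Control samples. Log2 fold changes of Cebpd were 0.93 (SE 0.55, FDR = 0.462) in SAP against Control, 1.71 (SE 0.44, FDR = 0.102, DESeq2 FDR = 0.00818) in JZL184 against SAP, and 2.61 (SE 0.47, FDR = 0.0357) in JZL184 against Control.

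Tsc22d3 on chromosome X encodes GILZ, a leucine zipper protein that restrains inflammatory transcription. Its FPKM was 5.24 and 14.9 in the Control samples, 3.27, 6.31, 5.69 and 12.5 in the SAP libraries and 15.7, 17.4, 15.4 and 15.9 in the JZL184 libraries. The JZL184 libraries lay close together and above all others, but Control library 3 came near them. Tsc22d3 had log2 fold changes of 1.33 (SE 0.42, FDR = 0.14, DESeq2 FDR = 0.041) in JZL184 against SAP, 0.68 (FDR = 0.309) in JZL184 against Control and -0.63 (SE 0.61, FDR = 0.595) in SAP against Control. The sign of the last value rests on Control library 3, without which it was 0.21. In JZL184 against Control the value was 1.52 without Control library 3 and 0.13 without the joint Control sample.

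Errfi1 on chromosome 5 encodes MIG6, an inhibitor of the EGF receptor. Its FPKM was 7.03 and 8.93 in the Control samples, 19.9, 23.5, 7.34 and 9.59 in the SAP libraries and 65.9, 16.3, 26.8 and 43.8 in the JZL184 libraries. SAP libraries 1 and 2 exceeded JZL184 library 2, and the JZL184 libraries were all above the Control samples. For Errfi1, log2 fold changes were 0.72 (FDR = 0.48) in SAP against Control, 1.51 (SE 0.45, FDR = 0.129, DESeq2 FDR = 0.0296) in JZL184 against SAP, and 2.20 (SE 0.53, FDR = 0.0643, DESeq2 FDR = 0.000555) in JZL184 against Control.

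Klf9 on chromosome 1 encodes a Krüppel-like transcription factor. Its FPKM was 0.61 and 0.70 in the Control samples, 3.72, 5.26, 0.62 and 1.13 in the SAP libraries and 1.44, 1.45, 4.65 and 2.77 in the JZL184 libraries. SAP libraries 1 and 2 were high, SAP library 3 was at the Control level, and the JZL184 libraries lay within the SAP range and above both Control samples. The fold change of Klf9 on the log2 scale was 1.81 (SE 0.82, FDR = 0.459) in SAP against Control, and it was 0.37 without SAP libraries 1 and 2 and 2.49 without SAP libraries 3 and 4. In JZL184 against SAP it was 0.15 (SE 0.61, FDR = 0.90), and in JZL184 against Control 1.92 (SE 0.55, FDR = 0.0871, DESeq2 FDR = 0.00814).

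Cdkn1a on chromosome 20 encodes p21, an inhibitor of the cell cycle that p53 also induces. Its FPKM was 27.4 and 20.5 in the Control samples, 8.55, 11.6, 16.6 and 21.4 in the SAP libraries and 14.2, 31.9, 30.3 and 45.6 in the JZL184 libraries. It was lowest in SAP libraries 1 and 2, and the ranges of the 3 groups overlapped. Cdkn1a had log2 fold changes of -0.87 (SE 0.45, FDR = 0.459) in SAP against Control, 1.21 (SE 0.44, FDR = 0.176) in JZL184 against SAP and 0.33 (FDR = 0.683) in JZL184 against Control.

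**Figure D1:**
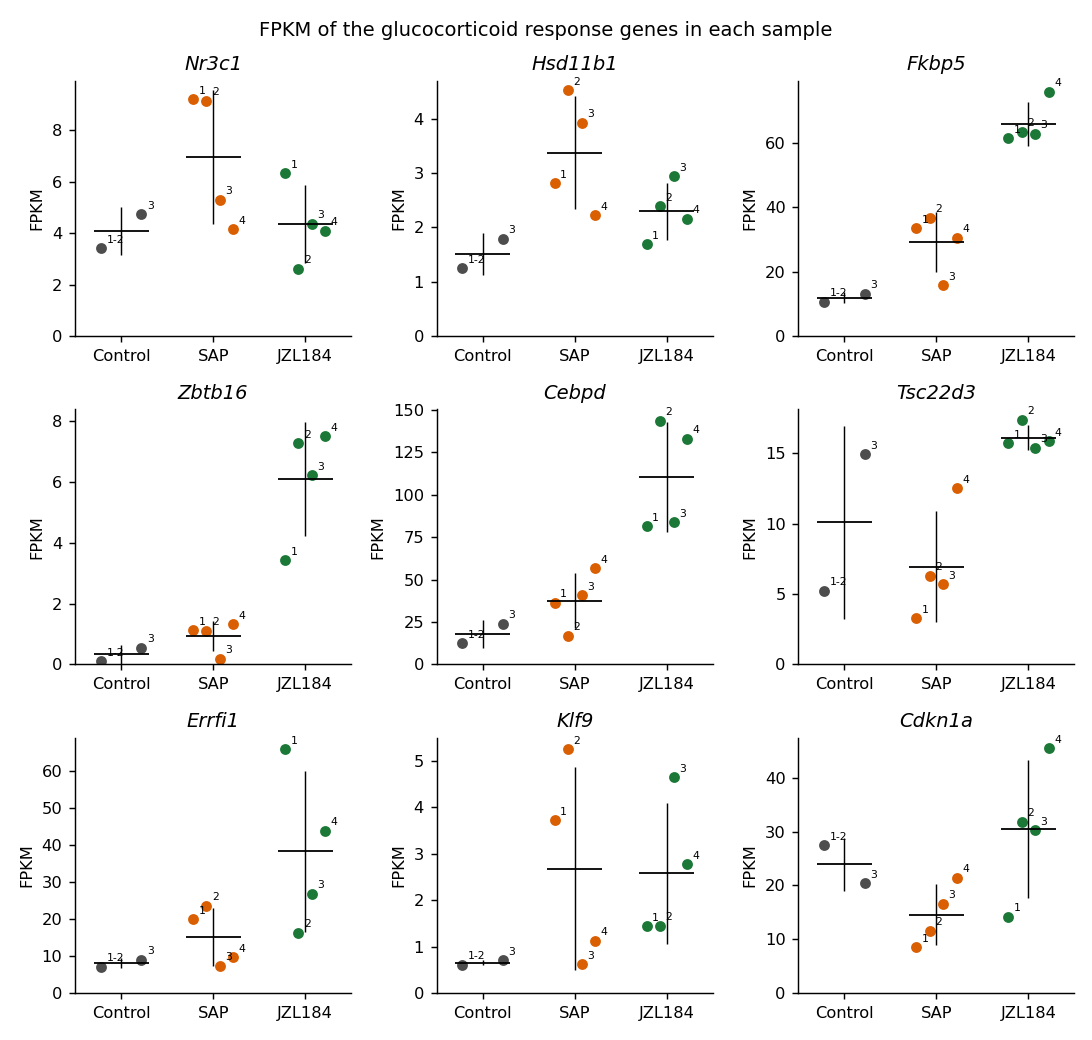
FPKM (vertical axis) of 9 members in each sample of the Control, SAP and JZL184 groups, with the sample number beside each point, the mean as a horizontal line and the SD as a vertical line. The 4 JZL184 points lie above all other points in Fkbp5, Zbtb16, Cebpd and Tsc22d3.

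Compared with the SAP group, 4 of the 9 tested members, Fkbp5, Zbtb16, Cebpd and Tsc22d3, were higher in every JZL184 library than in every SAP library. Normalized counts did so in 6.23% of the 15308 genes tested. At an unadjusted p below 0.05, 6 of the 9 members were higher (10.3% of all genes) and 0 lower (11.1% of all genes), and the 3 without such a p were Nr3c1, Hsd11b1 and Klf9. After adjustment edgeR called 0 members and 0 genes in all (0% of genes tested), and DESeq2 called 5 members, Tsc22d3, Fkbp5, Zbtb16, Errfi1 and Cebpd, all higher (6.98% of all genes in either direction and 3.57% higher). With quality weights, limma-voom called 4 of these, without Errfi1, and 2.18% of all genes as higher. The median log2 fold change of the 9 members was 1.33, beside -0.05 over all genes tested. Since members were chosen with earlier results of these data known, their counts beside all genes are a description in each comparison. With exact permutation of the FPKM (two-sided, n = 4 and 4), p was 0.0286 for Fkbp5, Zbtb16, Cebpd and Tsc22d3, the smallest this design allows, and 0.214 after adjustment over 30 tests. Without SAP libraries 3 and 4, edgeR called Tsc22d3, Fkbp5, Zbtb16, Cdkn1a and Cebpd as higher, with 7.92% of all genes called higher, and without SAP libraries 1 and 2 it called 0 members and 0% of all genes. The log2 fold change of Fkbp5 was 1.18 without SAP libraries 3 and 4 and 1.55 without SAP libraries 1 and 2, and that of Zbtb16 was 2.75 and 3.05. Without SAP library 2 alone they were 1.44 and 2.94, and edgeR called 0 members. Without JZL184 library 1 it called Fkbp5 and Zbtb16 as higher, with 2.22% of all genes called higher.

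Compared with the Control group, Fkbp5, Zbtb16 and Cebpd rose in the JZL184 group and were called by edgeR, which called 2.16% of all genes in either direction and 1.02% as higher. DESeq2 also called Klf9 and Errfi1, so that it called 5 members, all higher, and 10.8% of all genes in either direction, with 5.80% higher. 5 members were higher in every JZL184 library than in both Control samples by normalized counts (18.9% of all genes), to which FPKM adds Tsc22d3, and 5 were higher at an unadjusted p below 0.05 (13.8% of all genes) and 0 lower (12.5% of all genes). The median log2 fold change was 1.92, beside 0.08 over all genes. These calls rest on 2 Control samples. Without JZL184 library 2 edgeR called 0 members, beside 0.158% of all genes, and without JZL184 library 4 it called Fkbp5 alone, beside 0.493%. Without JZL184 library 1 it called 5 members as higher, with 5.47% of all genes called higher. Over the samples left out, log2 fold changes ran from 2.35 to 2.53 for Fkbp5, from 2.25 to 3.08 for Cebpd and from 3.52 to 5.72 for Zbtb16, with both ends reached by leaving out a Control sample. The 1 Control sample that then remains is assumed to vary like the JZL184 group. Over all genes it called 0 without the joint sample of Control libraries 1 and 2 and 1 without Control library 3, which holds for every call against Control given below.

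Between SAP and Control, edgeR and DESeq2 called 0 of the 9 members, where edgeR called 0% of all genes and DESeq2 1.23%, with 0.860% higher. Fkbp5 and Hsd11b1 were higher at an unadjusted p below 0.05 (5.69% of all genes) and 0 members were lower (3.40% of all genes), and the same 2 members were higher in every SAP library than in both Control samples (11.3% of all genes). The median log2 fold change of the members was 0.93, beside 0.06 over all genes. Without SAP libraries 3 and 4, edgeR called Fkbp5, Klf9 and Errfi1 as higher and Cdkn1a as lower, where it called 20.2% of all genes as higher and 16.9% as lower. Without SAP libraries 1 and 2 it called 0 members, beside 0.482% of all genes. The 3 comparisons share libraries in pairs, so that their fold changes are not independent of each other.

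**Figure D2:**
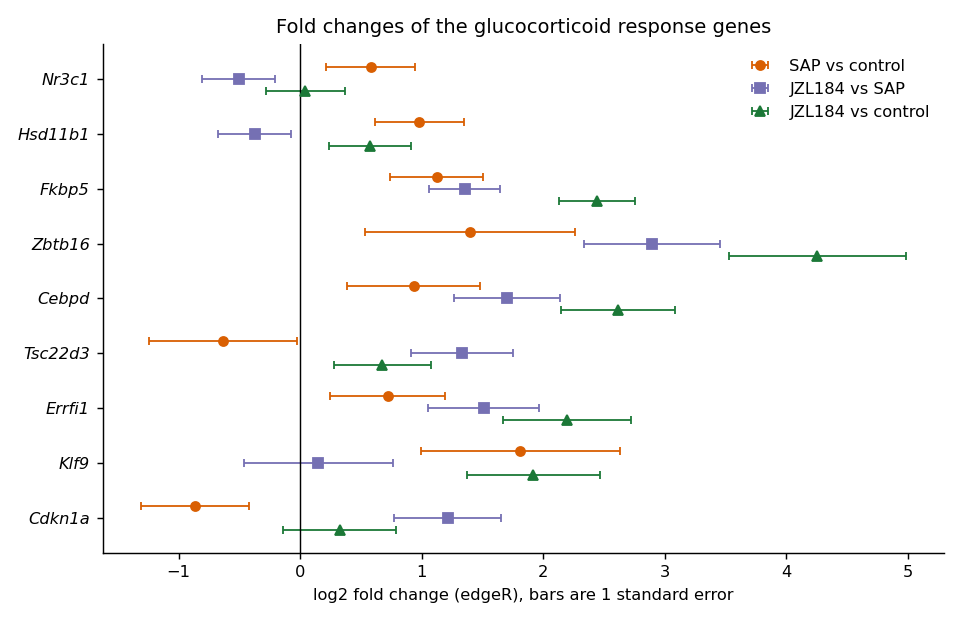
Log2 fold change (horizontal axis) of 9 members in the 3 comparisons, with bars of 1 standard error. Zbtb16 has the largest values in both comparisons with JZL184, 2.89 and 4.26, and Nr3c1 lies between -0.51 and 0.58.

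Across the 10 samples, Fkbp5 and Zbtb16 varied most closely together of all pairs of members (Pearson r = 0.963 of log2 CPM, counts scaled to library depth, n = 10, a description, since the points share the 3 groups and their treatment). Nr3c1 and Cdkn1a had the lowest value, with r = -0.90 (n = 10). Among 13645 genes with a mean CPM of at least 1, the 5 genes most like Fkbp5 were LOC120095679 (r = 0.992), Foxp1 (0.968), Pde4d (0.963), Zbtb16 (0.963) and Pappa1 (0.961). The 5 most like Zbtb16 were Pde4d (0.988), Ccdc146 (0.98), LOC120098189 (0.974), LOC100910577 (0.964) and Fkbp5 (0.963). Pde4d, a phosphodiesterase that degrades cAMP, is on both lists. The 5 most like Tsc22d3 were P2ry10 (0.958), Fbxo15 (0.95), Dusp2 (0.94), Rpl3l (0.933) and Cxcr4 (0.932), none of which is on the other lists. These lists depend on the settings. With a smaller count added before the log, a higher minimum CPM or separate control libraries, 6 lists stayed largely the same and 3 changed more.

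**Figure D3:**
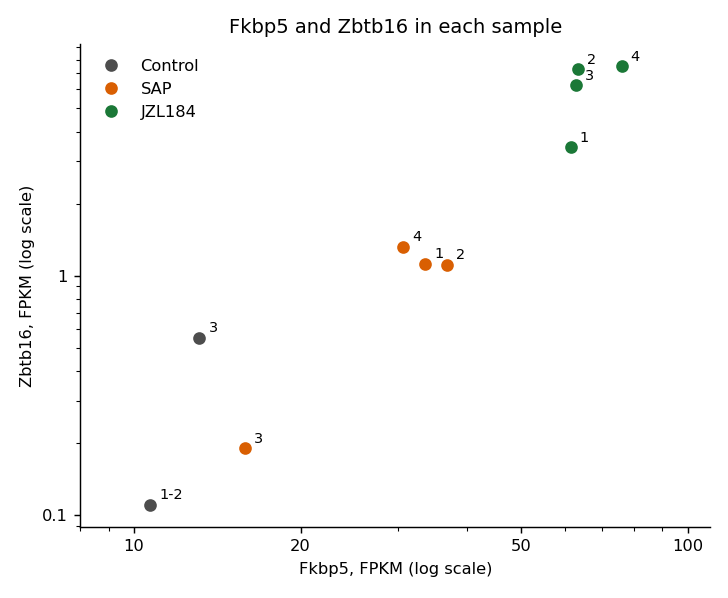
FPKM of Fkbp5 (horizontal, log scale) against FPKM of Zbtb16 (vertical, log scale) in 10 samples, with the sample number beside each point. The JZL184 samples lie at the upper right, from 61.5 for Fkbp5 and 3.43 for Zbtb16 upward, and SAP library 3 lies between the Control samples for Zbtb16.

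Other genes that the receptor is known to induce were counted on a list of 45 genes that holds no member, of which 44 were tested. This list and those below were also chosen with earlier results of these data known, so that their counts are a description. Of the 44, 22 were higher in JZL184 than in SAP and 1 was lower (Tgm2, named after its value was seen) at an unadjusted p below 0.05, beside 10.3% and 11.1% of all genes. By DESeq2, 15 were called, all higher, beside 3.57% of all genes. The median log2 fold change was 0.90. In JZL184 against Control, 27 were higher and 0 lower, beside 13.8% and 12.5% of all genes. There edgeR called 6 as higher, among them Lcn2, Mt2A and Map3k6, beside 1.02% of all genes, and the median was 1.5. Without the joint Control sample the 27 became 14, where 4.06% of all genes were higher. In SAP against Control, 9 were higher and 0 lower, beside 5.69% and 3.40% of all genes, edgeR called 0, DESeq2 called 6 as higher, beside 0.860% of all genes, and the median was 0.56. Without the joint Control sample the 9 became 4, where 1.15% of all genes were higher. The count of genes higher in JZL184 than in SAP was 14 without SAP libraries 1 and 2, where 9.48% of all genes were higher, and 17 without SAP libraries 3 and 4, where 18.9% were.

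The gene of the list with the smallest p in JZL184 against SAP was Map3k6, a kinase of the stress-activated pathways. Its FPKM was 0.53 and 0.59 in the Control samples, 1.09, 0.92, 0.83 and 0.99 in the SAP libraries and 2.47, 3.23, 4.04 and 2.52 in the JZL184 libraries. The 3 groups did not overlap. Its log2 fold change was 1.84 (SE 0.27, FDR = 0.0604) in JZL184 against SAP and 2.42 (FDR = 0.022) in JZL184 against Control. Nfkbia, which encodes the inhibitor of NF-kB, had 2.34 (FDR = 0.0693) and Mt2A, a metallothionein that also responds to zinc, had 3.14 (FDR = 0.0851) in JZL184 against SAP. Mt2A has a close relative, Mt1, with which reads could be shared.

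Per1, a clock gene that the receptor is known to induce, had an FPKM of 1.53 and 1.72 in the Control samples, 1.32, 1.53, 1.20 and 2.32 in the SAP libraries and 3.21, 4.09, 7.45 and 5.12 in the JZL184 libraries. All 4 JZL184 libraries were above all others. Its log2 fold change was 1.77 (SE 0.36, FDR = 0.0851, DESeq2 FDR = 0.000576) in JZL184 against SAP and -0.17 (FDR = 0.82) in SAP against Control. Sgk1, a kinase that controls sodium transport, was 2.82-fold higher in JZL184 than in SAP (FDR = 0.128, DESeq2 FDR = 0.0254), and Dusp1, a phosphatase that inactivates MAP kinases, had a log2 fold change of 1.75 (FDR = 0.109, DESeq2 FDR = 0.0108). The Dusp1 window in front of its start held 1 cAMP response element, TGACGTCA, which 1.83% of all windows hold.

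**Figure D4:**
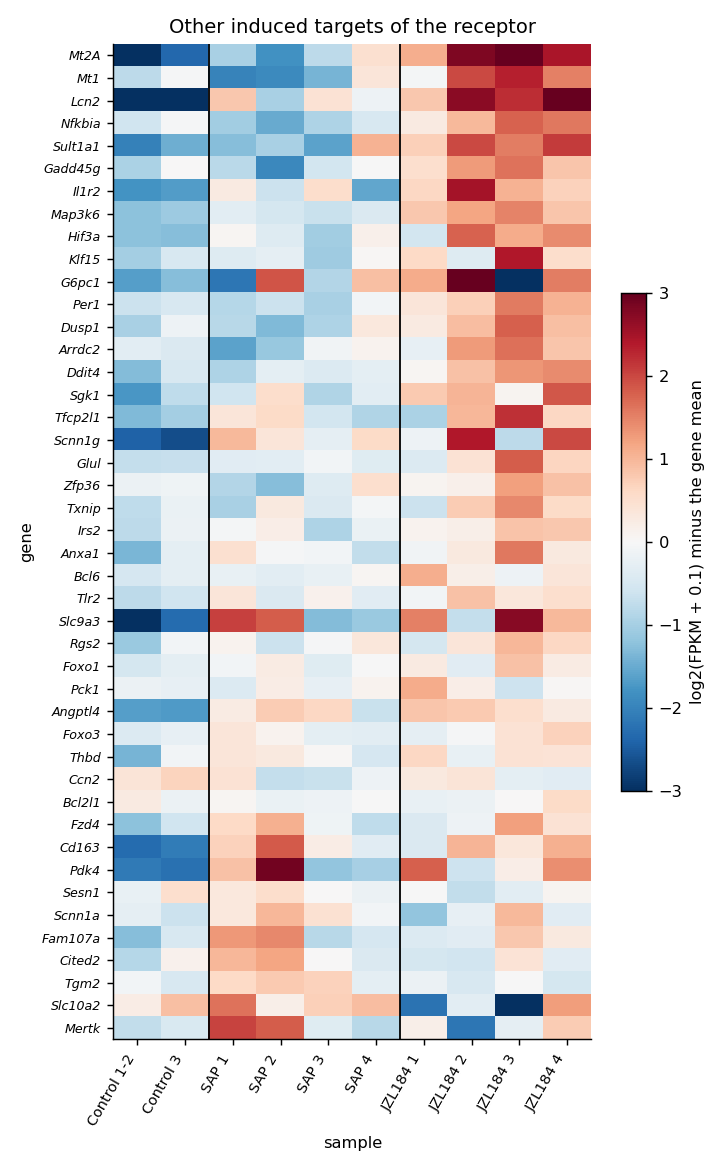
Log2 of FPKM plus 0.1, minus the mean of each gene, for 44 other induced targets (rows, ordered by their log2 fold change in JZL184 against SAP) in 10 samples (columns, with black lines between the groups). The upper rows, led by Mt2A, are red in the JZL184 samples, and the lower rows, such as Mertk and Tgm2, are not.

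A list of 23 genes that the receptor is known to lower, 22 of them measured, held mainly cytokines, chemokines and adhesion molecules. Of 20 tested in JZL184 against SAP, 15 were higher and 1 was lower (Ccl5, named after its value was seen) at an unadjusted p below 0.05, with a median log2 fold change of 1.91. Over all genes 10.3% were higher and 11.1% lower, and 1 lower gene in 20 is too few to set against the latter. DESeq2 called 13, all higher, beside 3.57% of all genes. In JZL184 against Control, 15 of 20 were higher and 1 lower, beside 13.8% and 12.5% of all genes, and edgeR called 7, all higher, beside 1.02% of all genes. In SAP against Control 8 of 22 were higher and 1 lower, beside 5.69% and 3.40% of all genes, with a median of 0.97, and the 8 became 1 without the joint Control sample, where 1.15% of all genes were higher. Cxcl1, a chemokine that attracts neutrophils, had an FPKM of 0.75 and 4.15 in the Control samples, 35.4, 5.90, 25.7 and 17.4 in the SAP libraries and 218.0, 339.2, 387.9 and 411.3 in the JZL184 libraries. All JZL184 libraries were above all SAP libraries. Its log2 fold change was 4.18 (SE 0.54, FDR = 0.0604, DESeq2 FDR = 1.85e-12) in JZL184 against SAP. Sele, an adhesion molecule of activated endothelium, had 3.43 (FDR = 0.0693) and Icam1, another adhesion molecule, 1.55 (FDR = 0.0851). Ccl2, a monocyte chemokine, rose by 4.04 on the log2 scale in JZL184 against Control (FDR = 0.0112). The summed FPKM of 7 neutrophil markers was 5.77 to 7.79 in Control, 11.6 to 82.8 in SAP and 15.8 to 248.7 in JZL184, with 2 of the 7 at 0 in both Control samples and 0 of them at 0 in the other groups. Between JZL184 and SAP, 0 of the 5 neutrophil markers tested had an unadjusted p below 0.05 with edgeR, beside 10.3% of all genes higher and 11.1% lower. DESeq2 called 0, beside 6.98% of all genes. The markers were split against Control at an unadjusted p below 0.05. In JZL184, 3 of 5 were higher and 2 lower, beside 13.8% and 12.5% of all genes. In SAP, 4 of 6 were higher and 1 lower, beside 5.69% and 3.40%. The part of these cells in the values of the list was not tested.

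The machinery that folds and carries the receptor was listed with 22 genes, all tested. Between JZL184 and SAP, 1 was higher and 5 were lower at an unadjusted p below 0.05, beside 10.3% and 11.1% of all genes, with a median log2 fold change of -0.74. The 5 became 10 without SAP library 3 and 11 without SAP library 4, where 11.3% and 14.6% of all genes were lower, and the median was -0.21 without SAP libraries 1 and 2. Fkbp4, a co-chaperone that acts against Fkbp5, had an FPKM of 135.4 and 124.9 in the Control samples, 106.2, 81.8, 131.2 and 72.9 in the SAP libraries and 59.3, 51.4, 44.0 and 41.2 in the JZL184 libraries. The JZL184 libraries were below all others. It fell by 1.45 on the log2 scale in JZL184 against Control (FDR = 0.0421), and in JZL184 against SAP its log2 fold change was -0.83 (FDR = 0.145, DESeq2 FDR = 0.0619). Stip1, which links the chaperones HSP70 and HSP90, had -1.02 (FDR = 0.0951, DESeq2 FDR = 0.0114) and Cdc37, an HSP90 partner, had -0.75 (FDR = 0.145) in JZL184 against SAP. In SAP against Control 1 gene of the 22, Ncoa2, a coactivator of the receptor, was higher at an unadjusted p below 0.05, beside 5.69% of all genes, and 6 were higher without SAP library 3 and also without SAP library 4, beside 10.7% and 15.3% of all genes. Ncoa2 had an FPKM of 5.19 and 6.10 in SAP libraries 1 and 2, 1.29 and 1.18 in SAP libraries 3 and 4, and 0.56 and 1.13 in the Control samples.

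Of 24 listed genes of steroid metabolism, 21 were measured. Of 15 tested in JZL184 against SAP, 4 were higher and 1 lower at an unadjusted p below 0.05, beside 10.3% and 11.1% of all genes. The 4 became 1 without SAP library 1, where 7.36% of all genes were higher. They became 2 without SAP library 4 (13.2% of all genes), JZL184 library 2 (7.14%) or JZL184 library 3 (7.77%). H6pd, which supplies NADPH to Hsd11b1, had the smallest p, with a log2 fold change of 1.35 (FDR = 0.0965). Hsd11b2, which inactivates glucocorticoids, had an FPKM of 8.41 and 7.72 in the Control samples, 20.1, 17.2, 38.0 and 46.8 in the SAP libraries and 7.18, 39.5, 70.9 and 35.8 in the JZL184 libraries. JZL184 library 1 was at the Control level and the SAP libraries were all above it. The log2 fold change was 1.79 (FDR = 0.459, DESeq2 FDR = 0.071) in SAP against Control and 2.21 (FDR = 0.122, DESeq2 FDR = 0.011) in JZL184 against Control. Fdxr, an electron donor of mitochondrial steroid synthesis, fell by 1.94 on the log2 scale in JZL184 against Control (FDR = 0.0395). Cyp11a1, the first enzyme of steroid synthesis, had an FPKM between 0.03 and 0.26, and Nr5a2, a nuclear receptor known to drive steroid synthesis in the gut, had a log2 fold change of -0.94 (FDR = 0.16) in JZL184 against SAP, and the receptor of mineralocorticoids, Nr3c2, had -0.83 (FDR = 0.296). Summed FPKM of 6 adrenal cortex markers lay between 0.33 and 1.22 in all samples.

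Of 17 clock genes, 7 were higher and 0 lower in JZL184 against SAP at an unadjusted p below 0.05, beside 10.3% and 11.1% of all genes. The 7 became 3 without JZL184 library 3, where 7.77% of all genes were higher. They became 4 without SAP library 1 (7.36% of all genes) or SAP library 3 (8.43%). In JZL184 against Control, edgeR called Bhlhe40, a transcriptional repressor, which rose by 2.27 on the log2 scale (FDR = 0.0167). The time of day of killing is not given in the sources used here. Summed FPKM of 10 epithelial markers was 22620 to 23080 in Control, 8902 to 17280 in SAP and 6979 to 15880 in JZL184. Summed FPKM of 7 fibroblast markers was 74.96 and 99.72 in the Control samples, 69.7 to 154.0 in SAP and 33.9 to 63.9 in JZL184, and 6 of the 7 were lower in JZL184 than in SAP at an unadjusted p below 0.05, beside 11.1% of all genes, and 4 were lower than in Control, beside 12.5%. Their part in the results for the members was not tested.

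**Figure D5:**
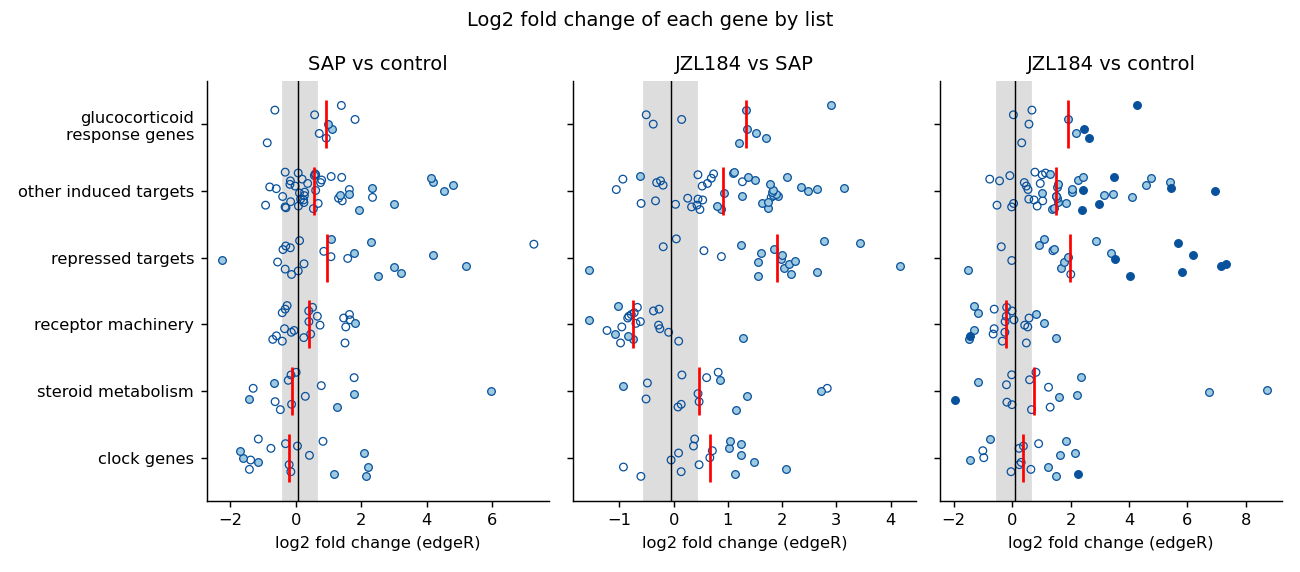
Log2 fold change (horizontal axis) of each tested gene on 6 lists in the 3 comparisons. Filled dark points were called by edgeR, light points had an unadjusted p below 0.05, open points had neither, red lines are medians and the grey band holds the middle of all genes tested between the quartiles. In JZL184 against SAP the median is 1.33 for the glucocorticoid response genes, 0.90 for the other induced targets, 1.91 for the repressed targets and -0.74 for the receptor machinery.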

How the data were processed

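The 11 stranded mRNA libraries were made from ileum RNA of rats. After trimming, the authors aligned reads to mRatBN7.2 with HISAT2 and deposited the count of uniquely aligned reads per gene without normalization. The deposited FPKM, calculated by the authors, is normalized for gene length and library size. How reads were assigned to genes, with which annotation and whether by strand, is not given in the sources used here. Depth was 26341299 to 33847135 reads per library.

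Pairs of groups were compared over all genes with edgeR 4.0.16 (quasi-likelihood test, TMM normalization, default filter with a minimum count of 10, R 4.3.3). A gene was called when its FDR was under 0.05 and its fold change over 2 or under 0.5. Reads of Control libraries 1 and 2 were summed, and their FPKM averaged. DESeq2 1.42.0, limma-voom (limma 3.58.1, with quality weights), other filters and normalizations, separate control libraries, the replicate number as a block and leaving out libraries were alternatives. Counts for the lists under these alternatives were added after the data were seen. Scripts were tested on simulated data. FPKM of members was also compared with exact permutation tests. Genes named are the members, the 3 genes with the smallest p of each list per comparison, some fixed genes of the pathway, and the genes most like 3 members, and others are named where a count is small. Members and lists were chosen with earlier results of these data known. Plots were drawn in Python 3.11.15 (pandas 2.3.3, matplotlib 3.10.9).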

Additional observations from a re-analysis of the deposited data

Results flagged for a closer look

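Of 92 groups of 4 libraries examined for a value far from the others, 5 exceeded Dixon's 95% critical value, where chance gives about 1 in 20. Fkbp5 had an FPKM of 76.05 in JZL184 library 4, with the nearest library at 63.51. Cyp11b1 had 0.01 in JZL184 library 4, which is 1 read, where the other JZL184 libraries had 0. Hsd3b2, a dehydrogenase of steroid synthesis, had an FPKM of 6.67 in SAP library 2, with the nearest at 0.71, and 42.08 in JZL184 library 3, with the nearest at 6.25. Cyp11a1 had 0.26 in JZL184 library 3, with the nearest at 0.08.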

How the results depend on the processing

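In SAP against Control, 0 genes were called, and 208 with DESeq2, 14 with limma-voom, 14 without the filter on low counts, 4 with all 3 groups in 1 fit, 33 with separate control libraries, 1434 with separate control libraries and DESeq2, 74 without SAP libraries 1 and 2, and 5859 without SAP libraries 3 and 4, and between 0 and 3 when 1 library was left out. The members called were 3 with separate control libraries and DESeq2 (Hsd11b1, Fkbp5 and Klf9), beside 8.46% of all genes, and 4 without SAP libraries 3 and 4, beside 37.2%. In JZL184 against SAP, 0 genes were called, and 1283 with DESeq2, 699 with limma-voom, 27 without the filter, 207 with all 3 groups in 1 fit, 33 with gene length offsets, 2912 without SAP libraries 3 and 4, and between 0 and 655 when 1 library was left out, with 655 without JZL184 library 1. The members called were 5 with DESeq2 (6.98% of all genes), 4 with limma-voom (4.57%), 2 with all 3 groups in 1 fit (1.25%) and 5 without SAP libraries 3 and 4 (18.1%). They were between 0 and 2 when 1 library was left out, beside 0% to 4.21% of all genes. In JZL184 against Control, 343 genes were called, and 1899 with DESeq2, 2906 with limma-voom, 929 without the filter, 2800 with separate control libraries, 3498 with these and DESeq2, and between 0 and 1867 when 1 library was left out. The members called were 3, beside 2.16% of all genes. They were 5 with DESeq2, limma-voom, separate control libraries and separate control libraries with DESeq2, beside 10.8%, 18.3%, 18.1% and 19.4%. They were between 0 and 5 when 1 JZL184 library was left out, beside 0.158% to 12% of all genes. The cause of these differences was not tested.

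With the replicate number as a block, 0 genes were called in JZL184 against SAP, and, with separate control libraries, 1 in SAP against Control and 1488 in JZL184 against Control, where Cdkn1a changed sign to -0.10. Correlations of deviations between samples of one number ran from -0.449 to 0.123. The labels do not say whether the numbers stand for more than a name, and these correlations cannot settle it.

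Directions turned as follows, in each case for values far from the threshold. In SAP against Control, the log2 fold change of Tsc22d3 was 0.21 without Control library 3 (-1.17 to 0.21 over the libraries left out), that of Per1 0.073 and of Dusp1 0.31 without SAP libraries 1 and 2, that of Dusp1 0.24 without Control library 3 and 0.07 without SAP library 2 (-0.70 to 0.24), and that of Nr3c2 -0.21 without SAP libraries 1 and 2. In JZL184 against SAP, Klf9 had -0.55 without SAP libraries 3 and 4, and -0.24 to 0.67 over the libraries left out. Its difference in mean FPKM was -0.105, against 0.080 on the log2(FPKM + 1) scale and 0.21 on the log2(FPKM + 0.1) scale. Without SAP libraries 1 and 2, Hsd11b2 had -0.10 and Nr3c2 0.032 in the same comparison. In JZL184 against Control, Nr3c1 had -0.031 with limma-voom, -0.23 with gene length offsets and -0.16 to 0.22 over the libraries left out. Of the other log2 fold changes under these alternatives, 1257 stayed on their side of the threshold with their sign, 210 passed it and 39 lost it. Depth limits Cyp11b1, with 5 reads. Counts were also low for Zbtb16, with 18 and 34 reads in Control libraries 1 and 2 and 46 in SAP library 3. Klf9 had 47 to 61 reads in the Control libraries.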
